A study of Mesocricetus auratus with 14 samples.

Results

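The liver transcripts of 10 genes of Toll-like receptor and NF-kB signalling were followed in hamsters: the receptors Tlr2 and Tlr4 and their co-receptor Cd14, the adaptor Myd88, the transcription factor subunit Nfkb1, the feedback inhibitors Nfkbia and Tnfaip3, and the cytokine genes Tnf, Il1b and Ccl2. They were taken by gene symbol, ignoring case, and all 10 were found among the 10023 genes to which the authors' deposited table gives a symbol. The samples were livers of golden hamsters (Mesocricetus auratus) on a high-fat diet, 7 given the compound DC371739 and 7 controls on the same diet. The sources used here do not state strain, sex, age, dose, route or length of treatment, nor whether each sample was a separate animal, so the spread measured is that between these samples. The genes were chosen with earlier results of these same libraries known, in which Tlr2 and Tnfaip3 were higher with DC371739. The treatment differences of all 10 are therefore given as a description.

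Toll-like receptors recognise microbial products at the cell surface and in endosomes. TLR2 binds bacterial lipoproteins, and TLR4 binds lipopolysaccharide with the help of CD14. Both signal through the adaptor MyD88 to a kinase that marks the inhibitor IkB-alpha (the product of Nfkbia) for destruction, which frees NF-kB to enter the nucleus. NF-kB then switches on cytokines and chemokines, and also Nfkbia and Tnfaip3, whose products shut the pathway down. In liver the Kupffer cells, the resident macrophages, are known for strong TLR signalling, and hepatocytes and endothelial cells also carry parts of the pathway.

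Libraries held 13672589 to 23948628 counts. DC371739 replicate 7 and control replicates 6 and 7 were sequenced more deeply than the rest (22152239 counts or more, against at most 16710097) and stood apart in earlier work on these data. Values are therefore also given over the 11 shallower libraries (6 DC371739 and 5 control) and from a fit with a term for library class. The deeper class holds too few libraries for a difference of its own. Levels are CPM (counts divided by the library total after TMM scaling, times 1e+06) unless stated otherwise. Differences are log2 fold changes of DC371739 over control from edgeR's quasi-likelihood fit over all 12166 genes that passed its expression filter, and all 10 genes passed that filter. The liver label held: the summed level of 9 hepatocyte markers was 106591 to 129811 CPM in DC371739 livers and 108875 to 142865 CPM in control livers.

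**Figure D1:**
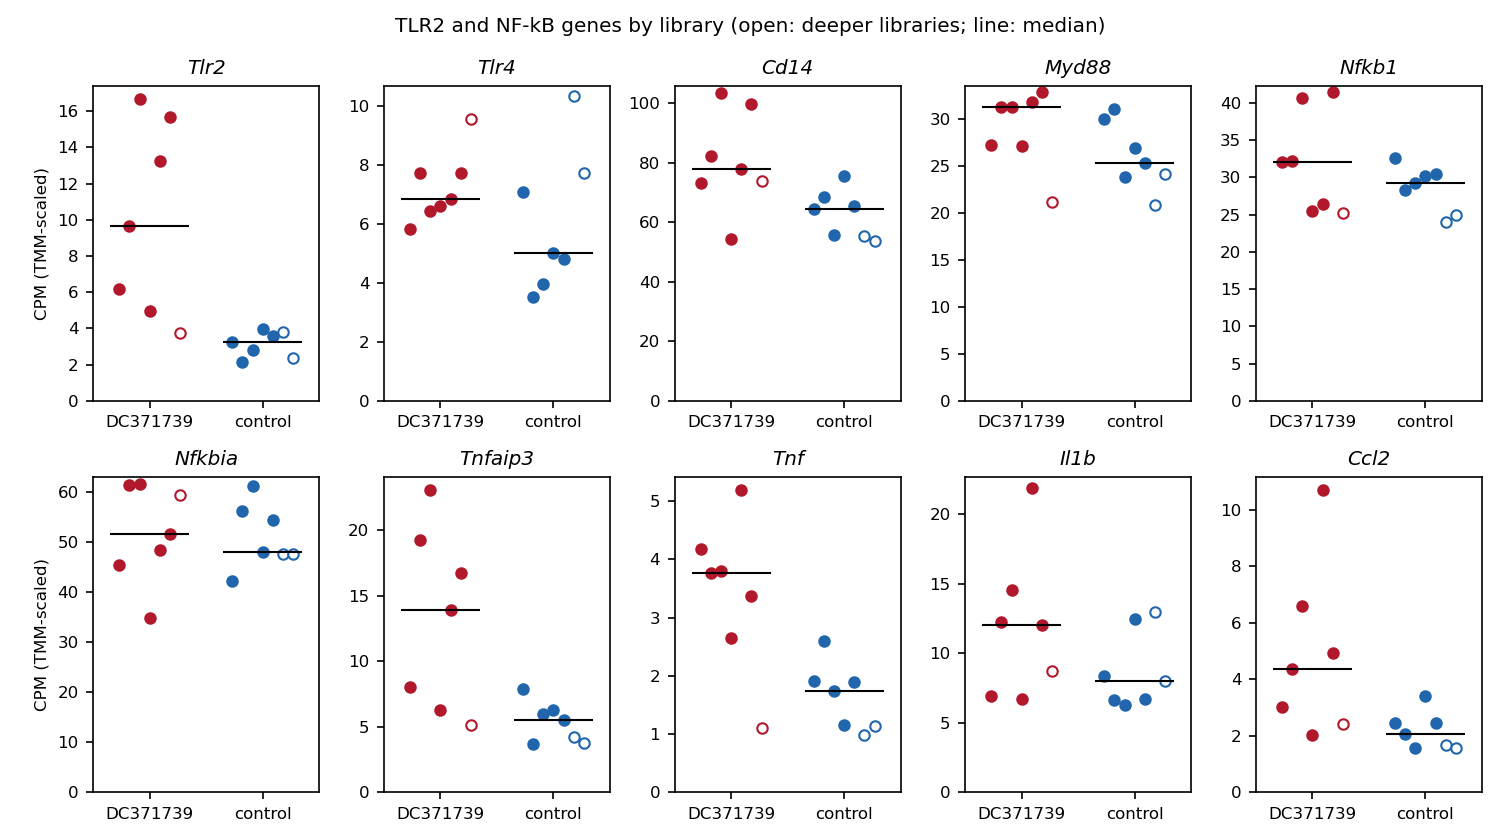
Level of each of the 10 genes in CPM (vertical axes, linear, from 0) in the 7 DC371739 and the 7 control livers; each point is a library, open points are the 3 deeper libraries and lines are medians. Tlr2 lies between 3.74 and 16.7 CPM in DC371739 livers and between 2.14 and 3.97 CPM in control livers.

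Tlr2 showed the largest difference of the 10 genes. It had a low of 3.74, a median of 9.66 and a high of 16.7 CPM in DC371739 livers, against 2.14, 3.25 and 3.97 CPM in control livers. DC371739 replicates 3 (16.7 CPM), 6 (15.7 CPM), 5 (13.2 CPM) and 2 (9.66 CPM) were highest, replicates 1 (6.16 CPM) and 4 (4.99 CPM) lay closer to the controls, and the deeper replicate 7 was inside the control range, so the groups overlapped by 1 library. The log2 fold change was 1.67 (SE 0.31), a 3.18-fold difference, and 1.81 (SE 0.32) over the 11 shallower libraries, in which the groups did not overlap, as for 4.09% of all genes in this direction. Leaving out DC371739 replicate 3 and the deeper replicate 7 moved it most, to 1.5 and 1.81. The SD between livers was 5.27 CPM with DC371739 and 0.712 CPM in control. On the scaffolds of the count table (the sources used here name no genome build), Tlr2 (ENSMAUG00000001049) spans 446077 to 451794 of scaffold KB708224.1 on the minus strand, with 2561 bases of exon counted.

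Tlr4, the lipopolysaccharide receptor, did not separate the groups. It had a low of 5.82, a median of 6.85 and a high of 9.56 CPM in DC371739 livers, against 3.51, 5.01 and 10.3 CPM in control livers. All 7 DC371739 livers were above the control median and none was above the control maximum. The highest values of both groups came from deeper libraries, 9.56 CPM in DC371739 replicate 7 and 10.3 and 7.73 CPM in control replicates 6 and 7. The log2 fold change was 0.25 (SE 0.21) over 14 libraries and 0.49 (SE 0.16) over the 11 shallower ones.

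Cd14, which hands lipopolysaccharide to TLR4 and lipoproteins to TLR2, had a low of 54.4, a median of 77.8 and a high of 103 CPM in DC371739 livers, against 53.8, 64.4 and 75.5 CPM in control livers. Replicates 3 and 6 were the highest DC371739 livers and replicate 4 the lowest, below the control median. 4 of 7 DC371739 livers were above every control, and the log2 fold change was 0.37 (SE 0.13).

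The FPKM ratio of Tlr2 to Tlr4, which corrects for gene length, had a low of 0.701, a median of 2.24 and a high of 4.63 in DC371739 livers, against 0.552, 1.09 and 1.42 in control livers. 5 of 7 DC371739 livers were above every control in this ratio. Replicate 4 and the deeper replicate 7, at 1.35 and 0.701, were within the control range. The deeper libraries held the highest Tlr4 levels of each group, and no ratio is given over the shallower libraries alone.

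Myd88, the adaptor below both receptors, differed little. It had a low of 21.2, a median of 31.2 and a high of 32.9 CPM in DC371739 livers, against 20.8, 25.3 and 31.0 CPM in control livers. The lowest library of each group was a deeper one. Its log2 fold change was 0.16 (SE 0.11). Nfkb1, which encodes the p105 precursor of the p50 subunit, had a low of 25.2, a median of 32.1 and a high of 41.4 CPM in DC371739 livers, against 24.0, 29.3 and 32.6 CPM in control livers. Replicates 3 (40.7 CPM) and 6 (41.4 CPM) were above all controls and the other 5 lay within the control range, with a log2 fold change of 0.16 (SE 0.13).

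Of the feedback inhibitors, Tnfaip3 encodes A20, a ubiquitin-editing enzyme that is transcribed in response to NF-kB and restrains it. Its low, median and high were 5.15, 13.9 and 23.0 CPM in DC371739 livers, against 3.66, 5.55 and 7.90 CPM in control livers. DC371739 replicates 3 (23.0 CPM), 2 (19.3 CPM), 6 (16.8 CPM) and 5 (13.9 CPM) were well above every control, replicate 1 (8.01 CPM) was just above the highest, and replicates 4 and 7 were within the control range. The log2 fold change was 1.30 (SE 0.31), and 1.31 (SE 0.33) over the shallower libraries. Tnfaip3 (ENSMAUG00000019454) spans 13279170 to 13293651 of scaffold KB708131.1 on the plus strand.

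Nfkbia, which encodes IkB-alpha, had a low of 34.8, a median of 51.7 and a high of 61.6 CPM in DC371739 livers, against 42.2, 48.0 and 61.2 CPM in control livers. The ranges largely coincided, with 4 of 7 DC371739 livers inside the control range, 2 just above it and replicate 4 below it. Its log2 fold change was 0.02 (SE 0.12) over 14 libraries and -0.04 (SE 0.14) over the shallower ones. The FPKM ratio of Tnfaip3 to Nfkbia had a low of 0.0380, a median of 0.125 and a high of 0.164 in DC371739 livers, against 0.0286, 0.0429 and 0.0820 in control livers, and 4 DC371739 livers were above every control.

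Of the cytokine genes, Tnf, the tumour necrosis factor gene, had a low of 1.10, a median of 3.77 and a high of 5.19 CPM in DC371739 livers, against 0.988, 1.74 and 2.60 CPM in control livers. Its counts were small, 25 to 88 in DC371739 libraries and 19 to 34 in control libraries. 6 of 7 DC371739 livers were above every control, and the exception was the deeper replicate 7. The 2 deeper control libraries were likewise the lowest controls. The log2 fold change was 1.08 (SE 0.29), and 1.05 (SE 0.22) over the 11 shallower libraries. In these the groups did not overlap, as for 4.09% of all genes in this direction.

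Ccl2, a chemokine that attracts monocytes, had a low of 2.03, a median of 4.36 and a high of 10.7 CPM in DC371739 livers, against 1.56, 2.06 and 3.42 CPM in control livers. Replicate 5 stood highest, followed by replicate 3 at 6.61 CPM, while replicates 1, 4 and 7 were within the control range. The difference was 1.16 (SE 0.33) on the log2 scale, and 0.84 without DC371739 replicate 5.

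Il1b, the gene of the inflammasome-processed cytokine interleukin-1 beta, had a low of 6.71, a median of 12.0 and a high of 21.8 CPM in DC371739 livers, against 6.30, 8.02 and 13.0 CPM in control livers. Only replicates 5 (21.8 CPM) and 3 (14.5 CPM) exceeded the highest control. The log2 fold change was 0.43 (SE 0.26), and 0.21 without DC371739 replicate 5, a change of over 1.5 times.

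**Figure D2:**
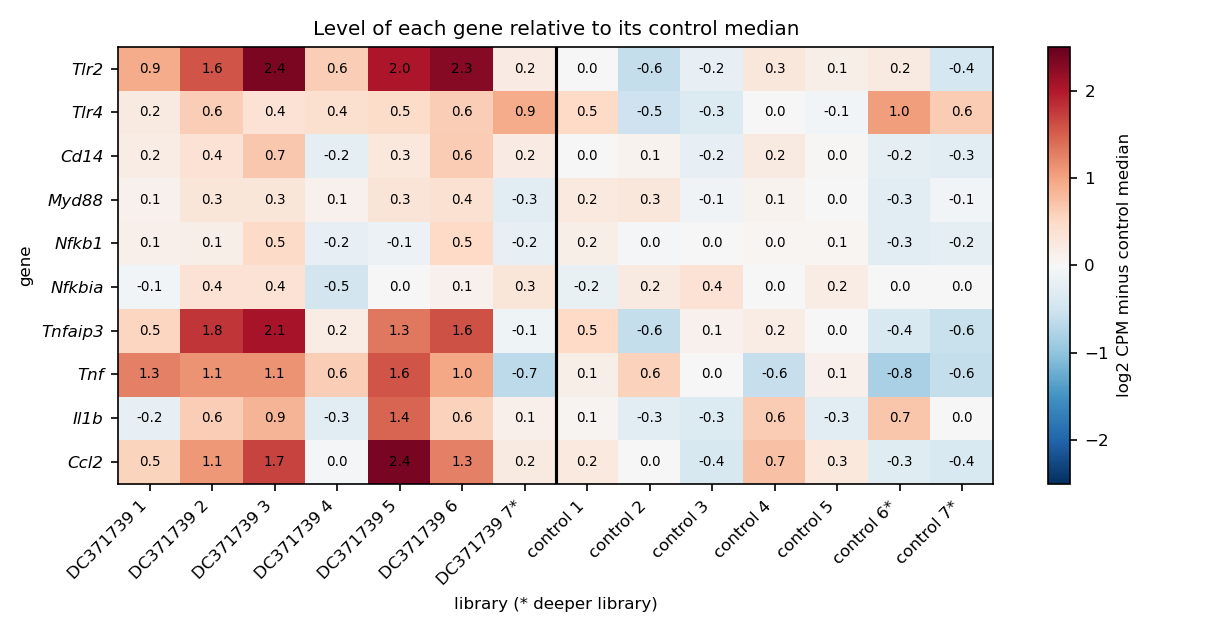
Log2 CPM of each gene (rows) minus its median over the 7 controls, in the DC371739 libraries (left of the line) and the control libraries (right); red is above and blue below the control median, and asterisks mark deeper libraries. For Tlr2, Tnfaip3 and Ccl2, replicates 2, 3, 5 and 6 are the 4 highest DC371739 livers; replicate 4 is below the control median for Cd14, Nfkbia, Nfkb1, Il1b and Ccl2.

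All 10 genes had a positive log2 fold change over 14 libraries, with a median of 0.40, beside -0.02 over all 12166 genes tested. For 7 of the 10 genes at least 6 of 7 DC371739 livers were above the control median, and the share of all genes that do so was not counted. At an adjusted p under 0.05 (Benjamini-Hochberg over all genes), 2 of the 10, Tlr2 and Tnfaip3, were called higher, beside 1.24% of all genes. With the library class term 4 of 10 were called higher (Tnf and Ccl2 in addition), beside 5.62% of all genes. Over the 11 shallower libraries 5 of 10 were called higher (Tlr4 in addition), beside 11% of all genes. These shares describe genes that were chosen from the same contrast, so nothing is read from them. The call of Tlr2 was lost without DC371739 replicate 3 or 6 (adjusted p = 0.0566 and 0.0560, edgeR), and that of Tnfaip3 without any of 10 libraries (control replicates 1 to 6 and DC371739 replicates 2, 3, 5 and 6, adjusted p 0.0531 to 0.107).

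**Figure D3:**
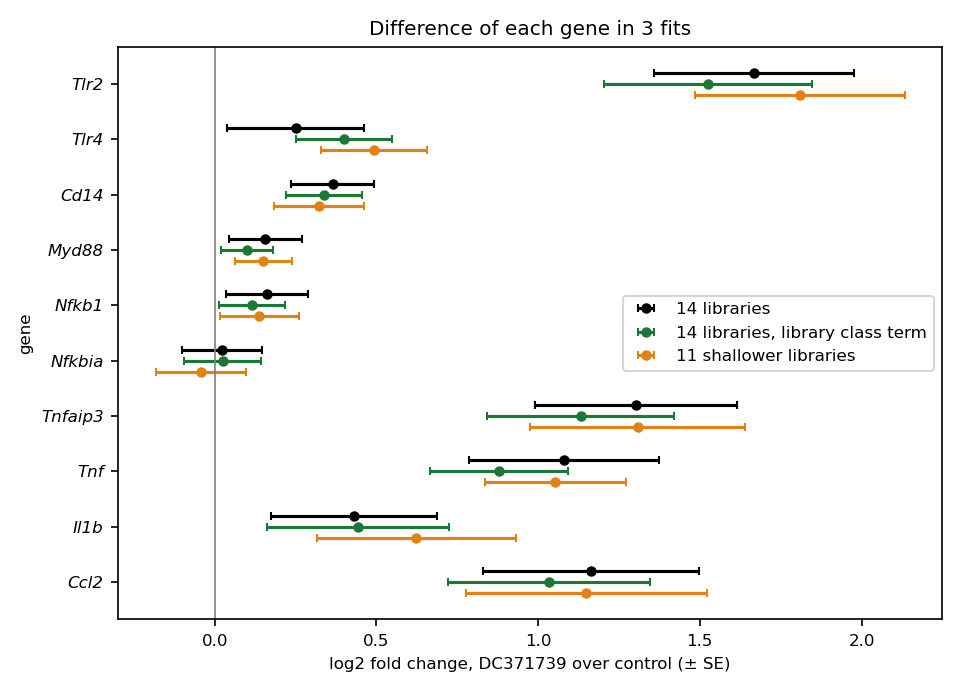
Log2 fold change of DC371739 over control with its SE (horizontal axis) for each gene, from the fit over 14 libraries (black), the fit with a library class term (green) and the 11 shallower libraries (orange). Tlr2, Tnfaip3, Tnf and Ccl2 lie at 0.88 or more in every fit, and Nfkbia lies between -0.04 and 0.02.

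An interaction term, fitted over all genes, asked whether deeper and shallower libraries differed in their response to treatment. The interaction of Tlr2 was -1.53 on the log2 scale (SE 0.72, adjusted p = 0.406, edgeR). The deeper class holds only 1 DC371739 library, so no direction is read from the term. Tnf had an adjusted p of 0.441, and Tnfaip3 one of 0.622. None of the 10 genes passed, and over all genes 2 did, or 0.0164%, with 1515 at an unadjusted p under 0.05.

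The 10 genes spanned a wide range of levels. Per length, Cd14 was the most abundant transcript, at 94.2 ± 19.4 FPKM in DC371739 livers and 73.0 ± 8.96 FPKM in control livers (SD, n = 7 each). Nfkbia followed at 44.6 ± 8.74 FPKM with DC371739 and 43.9 ± 5.42 FPKM in control, and Myd88 at 16.5 ± 2.25 FPKM with DC371739 and 14.8 ± 1.98 FPKM in control. Nfkb1 stood at 11.5 ± 2.44 FPKM with DC371739 and 10.3 ± 1.04 FPKM in control. Il1b had 11.1 ± 4.98 FPKM with DC371739 and 8.25 ± 2.68 FPKM in control.

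Ccl2 had 8.41 ± 5.23 FPKM in DC371739 livers and 3.75 ± 1.14 in control livers. Tlr2 was 7th of the 10 in DC371739 livers (5.07 ± 2.66 FPKM) and 9th in control livers (1.59 ± 0.362 FPKM). Tnfaip3 (4.96 ± 2.59 FPKM with DC371739, 2.01 ± 0.571 in control), Tnf (3.07 ± 1.15 with DC371739, 1.46 ± 0.505 in control) and Tlr4 (2.05 ± 0.369 with DC371739, 1.72 ± 0.709 in control) made up the low end. From Myd88 downward in DC371739 livers, and from Nfkb1 downward in control livers, each gene's range over libraries overlapped that of the next, so only the places of the most abundant genes exceeded the spread between livers.

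Livers of the same group differed among themselves, and the deviations from the group mean do not contain the treatment difference. Over the 11 shallower libraries, these deviations of log2 CPM were related between Tlr2 and each of the other 9 genes, with permutations within groups and p-values adjusted over the 9 relations. Tnfaip3 had the largest r over the 11 libraries (Pearson r = 0.86, permutation p = 0.00596, adjusted p = 0.0327; Spearman rho = 0.74, p = 0.0385, adjusted 0.0976). Cd14 had r = 0.82 (permutation p = 0.00774, adjusted 0.0327; rho = 0.72, p = 0.0434, adjusted 0.0976). Ccl2 had r = 0.81 (permutation p = 0.0109, adjusted 0.0327; rho = 0.92, p = 0.00089, adjusted 0.00801), and Il1b r = 0.79 (permutation p = 0.0167, adjusted 0.0375; rho = 0.80, p = 0.0124, adjusted 0.0557).

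The other 5 genes did not pass. Nfkb1 had r = 0.65 and rho = 0.67 (permutation p = 0.119 and 0.0669, adjusted 0.178 and 0.120), Nfkbia 0.50 and 0.36 (p = 0.198 and 0.343, adjusted 0.223 and 0.386), Myd88 0.43 and 0.42 (p = 0.170 and 0.161, adjusted 0.219 and 0.241) and Tlr4 0.39 and 0.39 (p = 0.114 and 0.195, adjusted 0.178 and 0.251). Tnf had r = 0.02 and rho = -0.10 (permutation p = 0.951 and 0.771, adjusted 0.951 and 0.771). For Tnf, Myd88 and Nfkbia the groups differed in sign: over the 6 shallower DC371739 livers r was 0.42, 0.93 and 0.75 for these genes, and over the 5 shallower controls, too few for a value, it was negative for each. Within the same 6 DC371739 livers r was 0.89 for Tnfaip3 and 0.91 for Cd14. The difference in sign between the groups was not tested.

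The relations rest largely on DC371739 replicates 1 and 4, the 2 libraries whose Tlr2 deviation was farthest from the median. Without them r was 0.50 for Tnfaip3, 0.53 for Cd14, 0.47 for Ccl2 and 0.41 for Il1b. It was 0.50 for Nfkb1, 0.35 for Tlr4, -0.25 for Myd88, -0.37 for Nfkbia and -0.59 for Tnf. That cytokine genes were higher in DC371739 replicates 2, 3, 5 and 6 was known when the 10 genes were chosen, so these relations are no independent evidence.

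**Figure D4:**
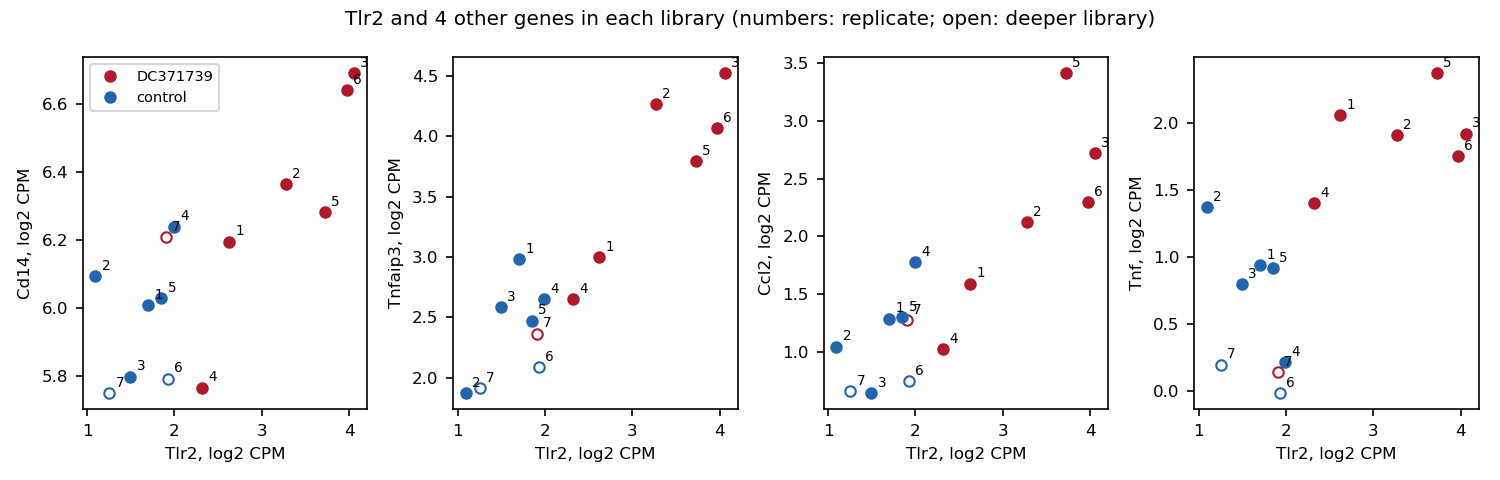
Log2 CPM of Cd14, Tnfaip3, Ccl2 and Tnf (vertical axes) against that of Tlr2 (horizontal axes) in all 14 libraries; red points are DC371739 and blue points control livers, open points are deeper libraries, and numbers are replicates. DC371739 replicates 2, 3, 5 and 6 lie to the right in each panel, and replicates 1, 4 and 7 lie nearer the controls on the Tlr2 axis.

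Of 8893 genes with a symbol and log2 CPM averaging 1 or more, the 5 whose deviations were most like those of Tlr2 over these 11 libraries included Pla1a (r = 0.94), a phosphatidylserine-specific phospholipase, Bri3bp (0.93), Ubfd1 (0.93) and Rhbdf2 (0.92), which encodes iRhom2, a partner of the protease that sheds TNF. As a description of the same order, Tnfaip3 stood 31st, Cd14 79th, Ccl2 88th and Il1b 157th, and 5% of all genes had an r above 0.69. Pla1a, at a log2 fold change of 0.35 (SE 0.19, adjusted p = 0.306, edgeR), was not called with DC371739.

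The wider pathway was read from 7 gene lists. They were drawn up with earlier results of these libraries known, so their counts and medians are a description and no independent evidence. Leaving out the 10 genes, the lists held 120, of which 79 had a symbol. Rela, Relb, Il6 and Cxcl1 were among those without. Of the listed genes 78 were tested, of which 4 rose, none fell and 74 did not pass. Beside this, 1.24% of all genes were called higher and 0.608% lower. The genes that rose included the chemokines Ccl3 and Ccl4 and the chemokine receptor Ccr1. At an unadjusted p under 0.05 there were 29, of which 1 was lower, beside 2476 of the 12166 genes. Log2 fold changes were positive for 60 of the 78 with a median of 0.20, beside 5675 of 12166 genes and a median of -0.02. With the library class term 15 rose and 2 fell, beside 5.62% and 6.7% of all genes. Over the 11 shallower libraries 19 of 79 rose and 4 fell, beside 11% and 10.5%. The count of 4 over 14 libraries was 0 without any one of control replicates 1, 3 and 5 and DC371739 replicates 2, 3, 5 and 6. It was 1 without control replicate 2 and 9 without DC371739 replicate 4, all of them higher. Without control replicate 7, 6 rose and 1 fell, and without DC371739 replicate 7, 16 rose and 1 fell.

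Among other receptors none of 9 passed edgeR's test (4 at an unadjusted p under 0.05, 2 called by DESeq2), and the median was 0.14. Beside these counts, and those of the lists below, stand 2476 of 12166 genes at an unadjusted p under 0.05 and 832 called by DESeq2. Cd180, a TLR-like receptor of B cells and macrophages, was the gene of smallest p, at 1.12 (SE 0.29, adjusted p = 0.0537, edgeR). It had 1.54 to 3.61 CPM in DC371739 livers and 0.229 to 1.44 CPM in control livers, with no overlap, as for 0.296% of all genes. The endosomal RNA receptor Tlr7 stood at 0.77 (SE 0.24, adjusted p = 0.0910). Neither level exceeded 4 CPM in any library. Of 17 adaptors and kinases none passed (3 unadjusted, 0 by DESeq2), with a median of 0.11. Ikbke, a kinase of the interferon branch, had 0.93 (SE 0.35, adjusted p = 0.149), and Traf6, the ubiquitin ligase that receives the signal from MyD88, had 0.65 (SE 0.25, adjusted p = 0.157) and passed over the shallower libraries (1.06, adjusted p = 0.00703). Of the 17, only Traf6 was called higher there (1 gene), beside 11% of all genes.

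Of the other NF-kB subunits with a symbol, Nfkb2 had 0.37 (SE 0.19, adjusted p = 0.287) and Rel 0.05 (SE 0.30, adjusted p = 0.949). The 15 other inhibitors had a median of 0.17 and no call (5 unadjusted, 2 by DESeq2). Tnip1, which binds A20, stood at 0.65 (SE 0.17, adjusted p = 0.0565), with 15.1 to 36.9 CPM in DC371739 livers and 11.4 to 19.0 CPM in control livers, and 6 of 7 DC371739 livers above every control. Cyld, a deubiquitinase that restrains NF-kB, had a negative difference, -0.32 (SE 0.08, adjusted p = 0.0512), with 34.5 to 43.6 CPM in DC371739 livers and 42.9 to 53.4 CPM in control livers. Both passed over the shallower libraries, Tnip1 at 0.61 (adjusted p = 0.00504) and Cyld at -0.29 (adjusted p = 0.0188). Of the 15 other inhibitors 1 rose and 2 fell there, beside 11% and 10.5% of all genes.

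Cytokines and chemokines beside Tnf, Il1b and Ccl2 had the highest median of the 7 lists, 0.71 over 8 genes, of which 2 rose. Ccl3, a macrophage chemokine, rose to a median of 2.06 CPM (range 1.23 to 3.79) in DC371739 livers, against 0.939 CPM (0.525 to 1.26) in control livers, a log2 fold change of 1.37 (SE 0.30, adjusted p = 0.0361). Ccl4, its close relative, rose to 2.19 CPM (1.32 to 2.59), against 0.889 CPM (0.428 to 1.53) in control livers, a change of 1.18 (SE 0.27, adjusted p = 0.0387). The monocyte chemokine Ccl7 had 0.98 (SE 0.33, adjusted p = 0.114), and Cxcl10, an interferon-induced chemokine, 0.82 (SE 0.31, adjusted p = 0.149).

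The receptor list, which covers TNF, IL-1 and chemokine receptors and the inflammasome, had a median of 0.28 over 13 genes. Ccr1, a receptor of CCL3, rose to a median of 2.77 CPM (0.985 to 4.37) in DC371739 livers, against 0.992 CPM (0.581 to 1.53) in control livers (1.41, SE 0.31, adjusted p = 0.0322). Nlrp3, the inflammasome sensor, had 1.02 (SE 0.34, adjusted p = 0.111) and Il1rn, the interleukin-1 receptor antagonist, 0.42 (SE 0.14, adjusted p = 0.0999). Ccl3, Ccl4 and Ccr1 each lost their call without 8 to 10 of the 14 single libraries, control replicates 1, 3 and 5 and DC371739 replicates 2, 3, 5 and 6 among them for each, with an adjusted p of up to 0.0928. Ccl3 and Ccl4 are related genes between which reads could have been shared.

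Of 14 other inducible targets none passed over 14 libraries (6 unadjusted, 5 by DESeq2), with a median of 0.30. Over the shallower libraries 6 of 15 rose, beside 11% of all genes, with a median of 0.56. Sod2, the mitochondrial superoxide dismutase, stood at 405 ± 85.4 CPM in DC371739 livers and 293 ± 27.0 CPM in control livers (SD, n = 7 each; log2 fold change 0.47, adjusted p = 0.0551, edgeR). Cd83, a marker of activated antigen-presenting cells, had 0.76 (SE 0.20, adjusted p = 0.0573).

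**Figure D5:**
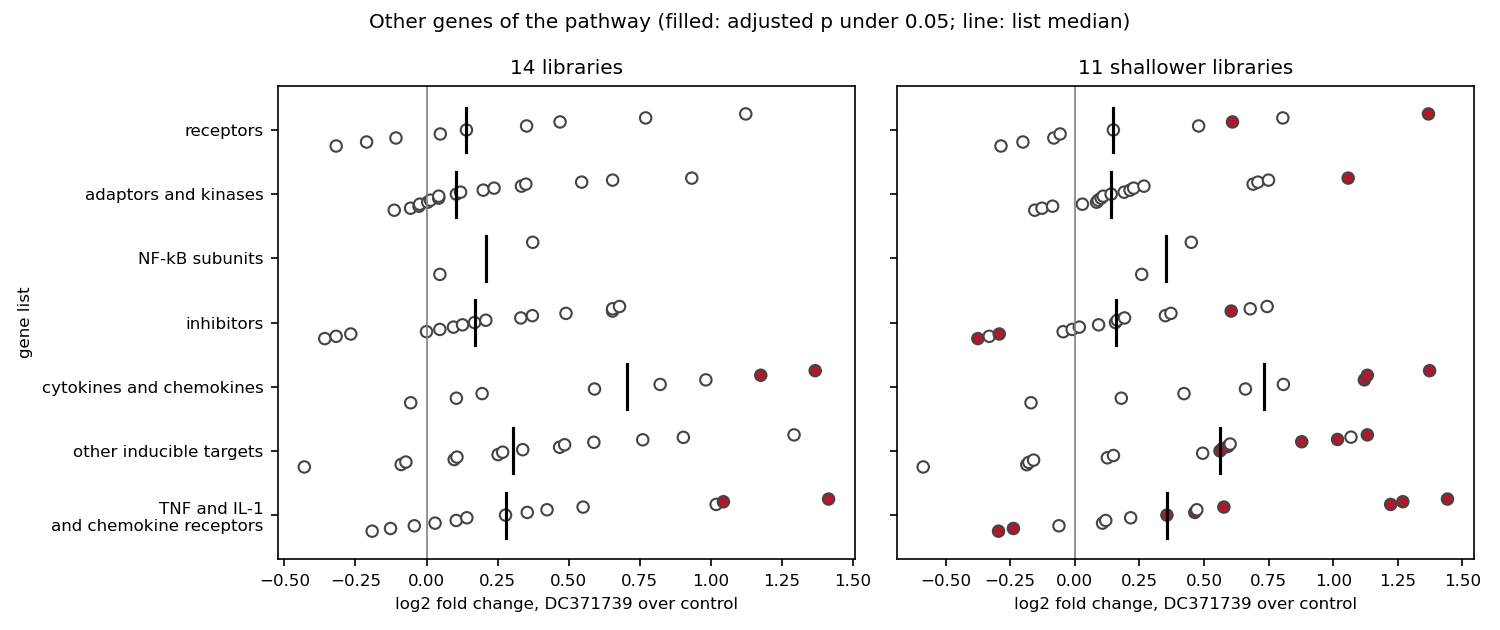
Log2 fold change (DC371739 over control, horizontal axes) of each tested gene of the 7 pathway lists other than the 10 genes, over 14 libraries (left, 78 genes) and over the 11 shallower libraries (right, 79 genes); filled points have an adjusted p under 0.05 and bars are list medians. Filled points number 4 on the left and 23 on the right, 4 of these below 0.

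Some markers of immune cells were also higher with DC371739. The marker lists, too, were drawn up with earlier results of these data known. In bulk RNA, more cells of a type and more RNA per cell cannot be told apart. Of 20 macrophage markers tested, 3 rose and none fell, beside 1.24% and 0.608% of all genes. With the library class term 10 rose and none fell, beside 5.62% and 6.7%, and over the 11 shallower libraries 8 rose and none fell, beside 11% and 10.5%. The log2 fold change over 14 libraries was positive for 16 of the 20, with a median of 0.36, beside 5675 of the 12166 genes and a median of -0.02. Their summed level was 1056 to 1658 CPM in DC371739 livers and 951 to 1383 CPM in control livers, with 6 of 7 DC371739 livers above every control and none of the markers at 0 in all libraries. Without any one of replicates 4 and 7 of either group, 5 rose. Laptm5, a lysosomal membrane protein of leukocytes, was the marker of smallest p, at 49.4 ± 7.08 CPM in DC371739 livers and 30.4 ± 3.38 CPM in control livers (SD, n = 7 each; 0.70, SE 0.11, adjusted p = 0.0101, edgeR).

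Of the macrophage markers, Csf1r (0.62, SE 0.16), Adgre1 (0.56, SE 0.16) and Timd4 (0.50, SE 0.12) had adjusted p of 0.0527, 0.0734 and 0.0512 over 14 libraries. All 3 passed with the library class term (adjusted p = 0.0122, 0.0210 and 0.0175) and over the 11 shallower libraries (adjusted p = 0.0215, 0.0122 and 0.0365). Cd163, a scavenger receptor, stood at -0.55 (SE 0.48, adjusted p = 0.548). C1qa (-0.26), C1qb (-0.07) and C1qc (-0.06) were also negative and did not pass. Clec4f, Cd5l, Marco and Vsig4 (0.35, 0.36, 0.33 and 0.01) did not pass over 14 libraries or over the 11 shallower ones. With the library class term Clec4f and Cd5l passed (adjusted p = 0.0405 and 0.0372, edgeR), and Marco and Vsig4 did not. Only 3 of the 10 listed monocyte and dendritic cell markers had a symbol. Of these Cx3cr1, a monocyte receptor, rose (1.40, SE 0.32, adjusted p = 0.0382, edgeR). Its level was low, 0.753 to 2.36 CPM in DC371739 livers and 0.153 to 0.929 CPM in control livers. Its call was lost without any of 7 libraries (control replicates 2, 3 and 5, DC371739 replicates 2, 3, 5 and 6, adjusted p 0.0622 to 0.0928). The 3 neutrophil markers with a symbol summed to 18.9 to 26.0 CPM in DC371739 livers and 8.88 to 18.0 CPM in control livers, with no overlap. Taken singly, 0.296% of all genes showed no overlap in this direction. Of the 3 markers, Csf3r stood at 1.02 (SE 0.27, adjusted p = 0.0565, edgeR). Prf1 of cytotoxic lymphocytes (1.08, adjusted p = 0.0512), the endothelial Pecam1 (0.71, 0.0565), the stellate cell gene Col1a2 (0.58, 0.0831) and the hepatocyte factor Hnf4a (0.48, 0.0795) were the genes of smallest p in their lists, and neither these nor Csf3r passed over 14 libraries. All 5 passed with the library class term (adjusted p 0.0122 to 0.0432) and over the 11 shallower libraries (adjusted p 0.00504 to 0.0436). Picked by p, these genes do not stand for their lists. In the neutrophil, lymphocyte, endothelial, stellate and hepatocyte lists the class term called 1, 1, 2, 1 and 1 higher, beside 5.62% of all genes. Over the shallower libraries 1, 1, 3, 2 and 1 were called higher, beside 11% of all genes. Over 14 libraries, log2 fold changes were positive for 6 of 10 endothelial markers (median 0.10) and 4 of 9 hepatocyte markers (median -0.05). They were positive for 3 of 3 neutrophil, 7 of 8 lymphocyte and 9 of 10 stellate markers (medians 0.39, 0.12 and 0.46). DESeq2 called 1 gene in each of the neutrophil, lymphocyte, endothelial and hepatocyte lists and 2 in the stellate list, beside 832 of all genes. At an unadjusted p under 0.05 edgeR had 1, 2, 3, 3 and 4 in these lists, beside 2476 of the 12166 genes. With so few markers per list, nothing is read from these counts.

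Set against the summed macrophage markers, a ratio added after the values were seen, Tlr2 had a low of 2.26, a median of 5.89 and a high of 11.9 CPM per 1000 CPM of markers in DC371739 livers, against 1.88, 2.86 and 3.79 in control livers. 6 of 7 DC371739 livers were above every control in this ratio. DC371739 replicate 7, the exception, had the highest marker sum of all libraries, 1658 CPM, with Tlr2 at 3.74 CPM. The ratio of Tnf put 5 DC371739 livers above every control (median 2.51 with DC371739, 1.44 in control), that of Tnfaip3 put 4 (9.25 and 4.55) and that of Ccl2 also 4 (2.66 and 1.81). That of Il1b had medians of 7.47 and 7.04, with 1 DC371739 liver above every control. For Cd14 (51.5 with DC371739, 54.6 in control), Myd88 (21.2 and 23.1), Nfkb1 (22.0 and 24.5), Nfkbia (34.8 and 45.8) and Tlr4 (4.70 and 5.06) the median ratio was lower with DC371739. For Tlr4 the deeper control replicates 6 and 7 had the highest control levels (10.3 and 7.73 CPM). These ratios are over all 14 libraries, and none is given over the shallower ones alone. The part that cell numbers have in any of these differences was not tested.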

How the data were processed

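Liver RNA of 14 samples was sequenced, 7 DC371739 and 7 control. Reads went through HISAT2 2.2.1, featureCounts 2.0.0 and edgeR, per the submitters' processing notes, which give no version of edgeR. The sources used here state no settings, genome build, annotation or strandedness. The authors deposited whole-number counts for 22283 Ensembl genes, per the file headers. Their second deposited table gives FPKM values, log2 fold changes, log2 mean CPM and p-values for 10023 genes with a symbol, and FPKM equalled counts per exon length and library constant within a relative deviation of 1.3e-07. Symbols come from that table; genes of the lists without a symbol there were not analysed here.

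The counts entered edgeR 4.0.16 (R 4.3.3; robust quasi-likelihood F-test, TMM scaling, expression filter with a minimum count of 10, treatment as the only term), and called at a Benjamini-Hochberg adjusted p under 0.05 over 12166 genes. SEs are the log2 fold change over the root of F. Log2 CPM of the relations used a prior count of 2 and 100000 permutations within groups. The test was checked on simulated counts. Libraries of a group differed by a chi-square of at least 11.2 per degree of freedom, so none was counted as a duplicate. The 10 genes, the lists and the alternatives (RLE or upper-quartile scaling, no filter, DESeq2 1.42.0, a block on replicate number, library class, single libraries left out) were chosen with earlier results of these data known. Named list genes are those called and the 2 of next smallest p per pathway list, and the smallest p per marker list with Adgre1, Csf1r, Cd163 and Timd4. C1qa, C1qb, C1qc, Clec4f, Cd5l, Marco and Vsig4 are named outside these rules, without a search for outlying libraries. Some genes that these rules name are not reported here. Intervals and SEs cover the spread between these libraries.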

Additional observations from a re-analysis of the deposited data

Results flagged for a closer look

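Among 39 named genes in 2 groups each, 78 sets of 7 libraries were examined for a single library far from the others, and 4 were found, where chance gives about 1 in 20. Cxcl10 in control replicate 1 stood at 41.0 CPM, against 18.8 CPM in the next highest control. Traf6 in DC371739 replicate 6 stood at 7.76 CPM, against 5.40 CPM in the next highest DC371739 liver. In DC371739 replicate 4, Adgre1 was lowest at 8.49 CPM, against 11.2 CPM in the next lowest, and Laptm5 was lowest at 34.9 CPM, against 46.5 CPM. None of the 10 pathway genes was found in this way.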

How the results depend on the processing

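Over 21 alternatives the signs of the 10 genes held except for Nfkbia, which was negative in 5 (lowest -0.04). Tlr2 ranged from 1.5 to 1.81. Tlr4 ranged from 0.16 to 0.49, with a call over the shallower libraries (adjusted p = 0.0444), and Il1b from 0.21 to 0.62. The call of Tnfaip3 was lost with no filter (adjusted p = 0.0537). Of all genes 225 were called (151 higher, 74 lower), with upper-quartile scaling 223 higher and 65 lower. DESeq2 called 832, the library class term 1499 and the 11 shallower libraries 2635. Of pathway genes other than the 10, 4 were called, against 7 with upper-quartile scaling, 14 with DESeq2, 17 with the class term and 23 in the shallower libraries. Of macrophage markers 3 were called, against 5, 7, 10 and 8 under the same 4 alternatives. Leaving out single libraries gave 25 to 1069 for all genes, 0 to 17 for pathway genes and 2 to 5 for macrophage markers; over the 11 shallower libraries it gave 14 to 31 pathway genes. The replicate number as a block left 8 calls in all, 0 pathway genes and 0 macrophage markers, and an adjusted p of 0.0550 for Tlr2, 0.0940 for Tnfaip3 and 0.0952 for Cx3cr1. Replicate numbers share no stated source. Of 7 same-numbered pairs 2 correlated above 0.1, replicate 7 at r = 0.55 and replicate 3 at r = 0.12. Both libraries numbered 7 are of the deeper class. No DC371739 library correlated best with its own number. The cause of these shifts was not tested. Neither other scaling nor another prior count moved a relation of Tlr2 across its threshold. No promoter motif was searched, as no promoter sequence was used here. Tnf, Ccl3, Ccl4, Ccr1 and Cx3cr1, at a few CPM or less, are limited by depth.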
